A study of Mus musculus with 2 samples.

Results

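Keratin genes, which encode the intermediate filament proteins of epithelia, nails and hair, were examined for 2 histone marks in cells sorted from a mesenchymal tissue. Members were the protein-coding genes whose symbol is Krt followed by digits, with a letter after the digits allowed, so that keratin-associated protein (Krtap) genes were left out. The rule found 53 of 21631 protein-coding genes of the autosomes and X, 28 of type I and 25 of type II. The genes were selected on symbol, not on a height, but the family was chosen by the island calls of these same libraries, so every count below is a description with no test. All 53 genes lie in 2 clusters, 27 type I genes on chromosome 11 and the 25 type II genes with Krt18, the type I exception, on chromosome 15.

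The cells came from incisor pulp of CD1 mice 5 days of age, which had been injected with EdU at 3.3 µg per g body weight. EdU is a thymidine analogue taken up during DNA replication, and the pulp was collected 24 h after the injection. EdU-positive cells were sorted by flow cytometry after dissociation, fixation and staining. H3K4me3, found at promoters in use or held ready, was mapped in 1 library. H3K27me3, deposited by Polycomb complexes at silent genes, was mapped in 1 other. Both had the same strain, tissue, age and EdU treatment. No group without EdU, of another age or of another tissue is compared here. Whether animals were pooled and whether both libraries came from a single sort was not given in the sources used here.

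Keratins of type I and type II assemble as pairs of unlike partners, and each epithelium uses its own pairs. Simple epithelia make Krt8 with Krt18, the basal layer of stratified epithelia Krt5 with Krt14, and the layers above it in epidermis Krt1 with Krt10. Fibroblasts and other mesenchymal cells, the pulp included, rely on vimentin as their main cytoplasmic intermediate filament.

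The measurement is a list of islands, stretches of enrichment that the authors called in each library, each with a summit height in the authors' units. A gene was counted as carrying a mark where an island reached within 1 kb of either annotated gene end, and widths below are those of the widest such island. The files hold no read counts, so depth is unknown, and a missing island does not show absence of the mark. With 1 library per mark and no input library there is no replicate error and no test between groups. Intervals on shares are exact binomial 95% intervals that cover counting over genes only, and neighbouring genes can share an island. The data come from a sorted bulk of cells, so fewer cells carrying a mark and less of it per cell cannot be told apart. Heights are not comparable between marks.

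The listed starts allow the sequence before a gene to be set beside its marks. The RefSeq promoter table (GRCm38.p6, the assembly called mm10) held 36 of the 53 genes, and 6 sequences are shown because their genes span the states found. They are those of Krt8 and Krt18, with both marks at the start, of Krt14, with H3K4me3 alone, of Krt7 and Krt77, with H3K27me3 alone, and of Krt5, with neither. Each is the 250 bases before the start, 5′ to 3′ on the strand of the gene, with CG dinucleotides in capitals:
Krt8 (chr15:102004343-102004592, minus strand): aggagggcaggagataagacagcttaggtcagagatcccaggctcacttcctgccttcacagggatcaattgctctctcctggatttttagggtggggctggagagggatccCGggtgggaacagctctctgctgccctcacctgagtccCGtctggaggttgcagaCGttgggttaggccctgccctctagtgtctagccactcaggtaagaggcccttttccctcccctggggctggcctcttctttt
Krt18 (chr15:102027966-102028215, plus strand): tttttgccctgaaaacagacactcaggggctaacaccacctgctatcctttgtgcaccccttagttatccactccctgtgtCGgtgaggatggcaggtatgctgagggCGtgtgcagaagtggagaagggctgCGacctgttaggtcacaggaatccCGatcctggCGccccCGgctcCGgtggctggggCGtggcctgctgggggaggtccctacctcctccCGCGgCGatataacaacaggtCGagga
Krt14 (chr11:100206031-100206280, minus strand): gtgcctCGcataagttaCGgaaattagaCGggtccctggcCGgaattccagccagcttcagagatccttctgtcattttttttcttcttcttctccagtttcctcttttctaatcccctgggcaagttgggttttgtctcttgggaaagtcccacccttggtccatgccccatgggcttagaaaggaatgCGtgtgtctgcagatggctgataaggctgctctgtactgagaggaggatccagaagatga
Krt7 (chr15:101412153-101412402, plus strand): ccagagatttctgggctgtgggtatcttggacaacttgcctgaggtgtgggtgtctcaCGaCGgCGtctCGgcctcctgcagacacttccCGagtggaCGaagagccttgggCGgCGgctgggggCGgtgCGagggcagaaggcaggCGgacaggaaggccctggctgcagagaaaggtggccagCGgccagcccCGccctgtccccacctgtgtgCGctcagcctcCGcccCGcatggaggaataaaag
Krt77 (chr15:101869706-101869955, minus strand): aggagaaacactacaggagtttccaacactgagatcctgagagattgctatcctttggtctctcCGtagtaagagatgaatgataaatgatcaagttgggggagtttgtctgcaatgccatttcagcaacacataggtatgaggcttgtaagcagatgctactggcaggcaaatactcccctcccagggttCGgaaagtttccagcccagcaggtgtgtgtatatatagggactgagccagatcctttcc
Krt5 (chr15:101712906-101713155, minus strand): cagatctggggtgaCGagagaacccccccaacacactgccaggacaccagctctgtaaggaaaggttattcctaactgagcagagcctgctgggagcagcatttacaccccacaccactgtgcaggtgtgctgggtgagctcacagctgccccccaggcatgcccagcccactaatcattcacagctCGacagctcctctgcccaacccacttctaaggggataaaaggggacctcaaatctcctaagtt
The run before Krt7 holds 16 CG dinucleotides and that before Krt18 holds 12. Those before Krt14, Krt8, Krt77 and Krt5 hold 5, 3, 2 and 2. The 250 bases before the Krt8 start, which has both marks, are thus nearly as poor in CG as those before Krt5. Sequence after the start, where most of the Krt8 H3K4me3 island lies, was not counted. The listed start of Krt14 lies 1480 bp inside the outermost annotated end, so its run falls within the annotated gene.

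Most keratin genes carried neither mark or H3K27me3 alone. H3K4me3 lay at 6 of the 53 genes (11.3%, interval 4.27 to 23.0%), where 58.9% of all protein-coding genes carried it. H3K27me3 lay at 22 (41.5%, 28.1 to 55.9%), against 22.4% of all genes. Thus 18 genes (34.0%) carried H3K27me3 only, 4 (7.55%) both marks, 2 (3.77%) H3K4me3 only and 29 (54.7%) neither. The same states held 5.67%, 16.8%, 42.1% and 35.4% of all protein-coding genes. Among islands with a summit at or above the median of their mark, called the higher-summit set below, H3K4me3 was left at 2 keratin genes (3.77%, against 37.4% of all genes) and H3K27me3 at 11 (20.8%, against 17.8%). The larger share of H3K27me3 at keratins thus rested on islands with low summits, and in that set it was near the share of all genes. Within 1 kb of a listed start, known for 36 keratin genes, H3K4me3 lay at 3 and H3K27me3 at 14, against 59.4% and 19.1% of all genes with a listed start.

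H3K27me3 was called at a larger share of type II than of type I genes, a difference that was not tested. H3K27me3 was found at 16 of 25 type II genes (64.0%, 42.5 to 82.0%) and at 6 of 28 type I genes (21.4%, 8.30 to 41.0%), the latter close to the 22.4% of all genes. On chromosome 15 as a whole 29.6% of genes carried it, and on chromosome 11 25.9%. The contrast follows the cluster as well as the family, since Krt18, the type I gene on chromosome 15, carried it too, and family and cluster cannot be told apart for the other 52 genes. H3K4me3 was found at 4 type I (14.3%, 4.03 to 32.7%) and 2 type II genes (8.0%, 0.984 to 26.0%), and the sign of that small difference turned when at least 50% of a window had to be covered. In the higher-summit set H3K27me3 lay at 8 type II genes (32.0%) and 3 type I genes (10.7%), against 17.8% of all genes.

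**Figure D1:**
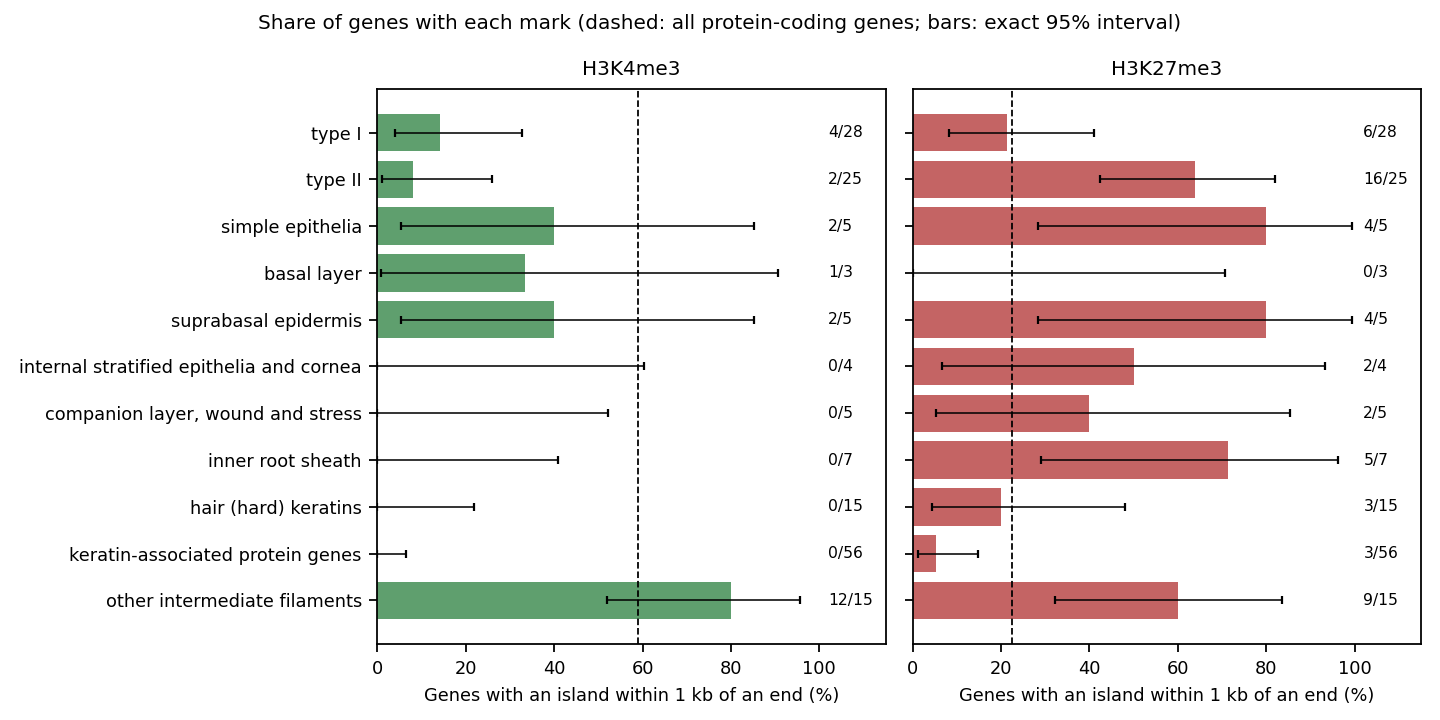
Share of genes with an island within 1 kb of an end, in percent, for H3K4me3 (left) and H3K27me3 (right), by keratin type, by role, and for the Krtap and other intermediate filament genes. Whiskers are exact binomial 95% intervals over genes, dashed lines the shares of all protein-coding genes (58.9 and 22.4%); type II stands at 64.0% for H3K27me3 and type I at 21.4%.

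Along chromosome 15 the mark recurred through much of the cluster. Between the H3K27me3 islands of Krt76 and Krt8 the only other was the 1.40 kb island at Krt79. The stretch from Krt80 to Krt18, 684 kb with 26 keratin genes and 1 other protein-coding gene, was touched by 23 H3K27me3 islands that covered 35.8% of it. The 500 kb before and after it were covered to 13.5% and 2.36%, and the chromosome between its first and last gene or island to 3.67%. H3K4me3 islands covered 1.08% of the cluster against 12.1% and 21.9% of the flanks. From Krt71 to Krt76, a stretch of 159 kb picked after its values were seen, all 7 keratin genes carried H3K27me3 and 69.5% of the sequence lay under it.

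The chromosome 11 cluster had most of its H3K27me3 islands in its first part, with summits no higher than the median of the mark. It runs over 1037 kb from Krt222 to Krt42, is split by 444 kb of Krtap and other genes, and had 6.50% of its length under 12 H3K27me3 islands, near the 5.96% of the chromosome. Of the 317 kb before the Krtap stretch, with 12 keratin genes, 17.3% lay under the mark, and of the 276 kb after it, with 15, 3.92%, spaces between genes included. The highest H3K27me3 summit was 12 before the Krtap stretch and 26, at Krt19, after it. Krt27, Krt28, Krt10 and Krt12 stood together, and 42.9% of the 77.0 kb from Krt27 to Krt12 was covered. Among them only Krt10 kept H3K27me3 in the higher-summit set, where 1.52% of the whole cluster was covered. No island of either mark touched the 125 kb from Krt33a to Krt15, which hold 9 keratin genes. Both stretches were picked after their values were seen. H3K27me3 covered 2.04% and 8.12% of the 500 kb before and after the cluster. H3K4me3 covered 0.621% of the cluster, against 21.9% and 14.1% of the flanks.

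**Figure D2:**
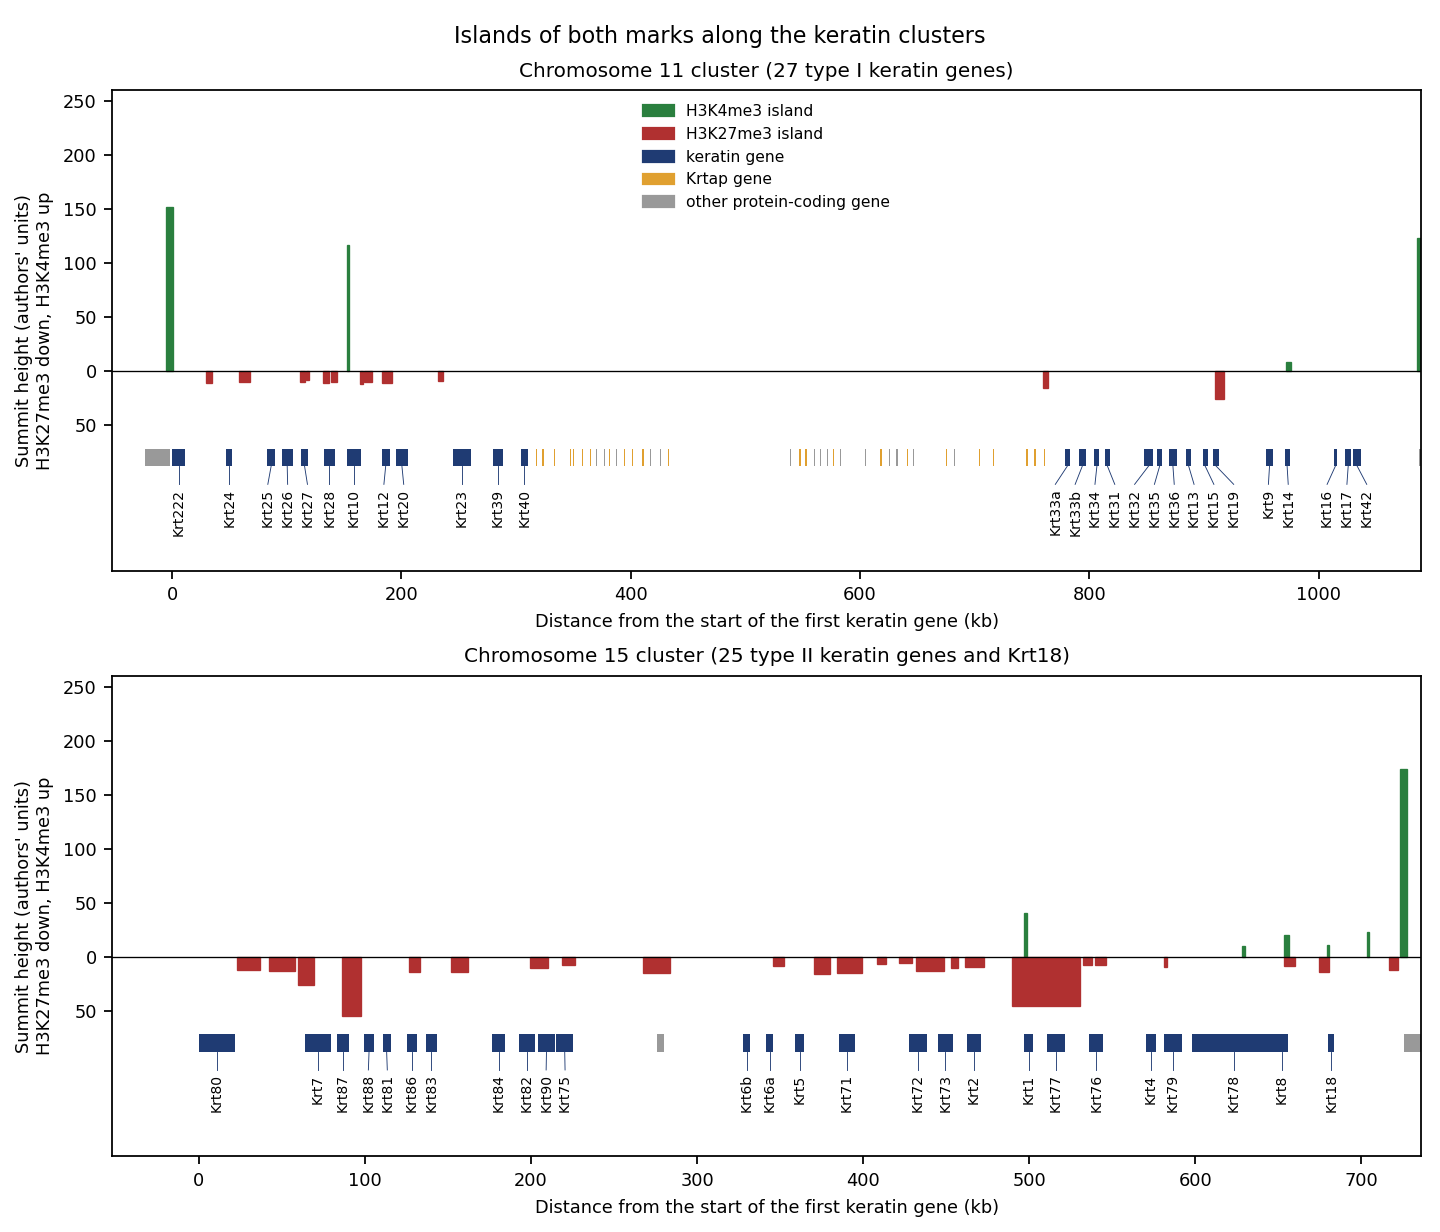
Islands along the chromosome 11 cluster (top) and the chromosome 15 cluster (bottom), by distance in kb from the start of the first keratin gene, with H3K4me3 summit heights drawn upwards and H3K27me3 heights downwards in the authors' units, which are not comparable between marks. H3K27me3 recurs along much of the chromosome 15 cluster and covers 35.8% of it. It covers 6.50% of the chromosome 11 cluster, mostly in the first part, where no H3K27me3 summit exceeds 12.

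The H3K27me3 islands at keratin genes had widths near those of all islands, and few had high summits. There were 24 of them, 3 shared by 2 keratin genes each, and 5 genes had 2 islands. Their median width was 6.80 kb (interquartile range 4.95 to 9.55 kb), against 6.20 kb (4.40 to 9.60 kb) for all 11341 islands of the mark. The median height was 11 (9 to 14) against 12 (9 to 21), and 4 of the 24 (16.7%) had a summit over 20, against 26.1% of all islands. Per gene, the widest island had a median of 10.6 kb (1.40 to 40.4 kb) at the 16 type II genes and 5.70 kb (3.20 to 8.80 kb) at the 6 type I genes. The 3 shared islands (10.6, 16.4 and 40.4 kb) all lie at type II genes and enter that median once for each of their 2 genes. Median heights were nearly equal, 12 (8 to 55) in type II and 11.5 (10 to 26) in type I. The mark lay at both gene ends in 10 of the 22 genes, against 26.8% of all genes with H3K27me3, but the keratin genes were also shorter, with a median length of 8.81 kb against 24.8 kb.

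**Figure D3:**
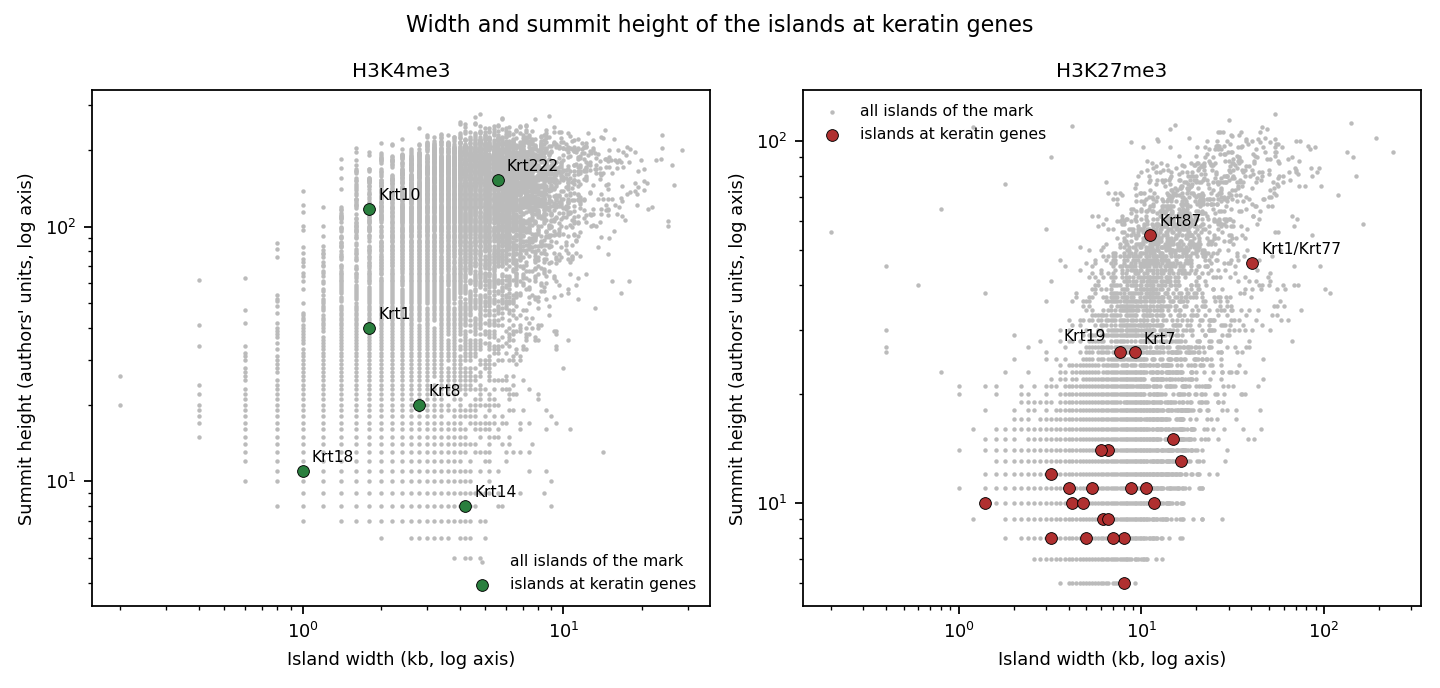
Width in kb and summit height in the authors' units of the islands at keratin genes (coloured) over all islands of the mark (grey), on log axes. Of the H3K4me3 islands those of Krt222 and Krt10 have summits of 152 and 117 and the other 4 lie at 8 to 40; for H3K27me3 the islands of Krt87 and of Krt1 with Krt77 stand highest at 55 and 46.

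The pair Krt8 and Krt18, known from simple epithelia such as the linings of gut and glands, had both marks together at both starts in these pulp cells. Krt8 had an H3K4me3 island of 2.80 kb (height 20) at its start on chromosome 15 (102001801 to 102004599), wholly inside an H3K27me3 island of 6.60 kb (height 9). Its partner Krt18, 23.9 kb further along, had 1.0 kb of H3K4me3 (height 11), wholly inside 6.0 kb of H3K27me3 (height 14). The H3K4me3 summits stood above only 13.7% and 3.26% of the islands of that mark. Krt7, of ducts and bladder, had 9.20 kb of H3K27me3 (height 26) at its start, and Krt19, which can pair with it, 7.60 kb (height 26). Both heights exceed 79.5% of H3K27me3 islands, and neither gene had H3K4me3 within 1 kb. Krt20, of gut lining, had neither mark, and its nearest H3K27me3 island was 3.79 kb away. Thus 4 of the 5 simple-epithelium keratins carried H3K27me3 (interval 28.4 to 99.5%) and 2 H3K4me3 (5.27 to 85.3%). The shares of all protein-coding genes were 22.4% and 58.9%, the latter inside the H3K4me3 interval.

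Of the 3 basal-layer keratins 1 carried H3K4me3 and 0 H3K27me3, a group too small to set apart from the 22.4% of all genes (interval 0 to 70.8%). Krt14 had an H3K4me3 island of 4.20 kb on chromosome 11 (100204401 to 100208599) that covered its listed start and 71.5% of the gene. Its summit of 8 exceeded 0.564% of H3K4me3 islands, so it is among the lowest called. Its partner Krt5 had neither mark, with the nearest H3K27me3 island 5.70 kb from an end and the nearest H3K4me3 island 132 kb away. Krt15, also of the basal layer, had neither mark.

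In the suprabasal epidermal group 4 of 5 genes carried H3K27me3 (interval 28.4 to 99.5%) and 2 H3K4me3 (5.27 to 85.3%). Of all protein-coding genes 22.4% and 58.9% did, the latter inside the H3K4me3 interval. Krt1 and Krt77, type II neighbours, lay wholly under the widest island of the family, 40.4 kb on chromosome 15 (101838201 to 101878599, height 46), wider than 98.7% of H3K27me3 islands. Inside it, at the lower-coordinate end of Krt1, was an H3K4me3 island of 1.80 kb (height 40). Krt10, the type I partner of Krt1, also counted as having both marks, but 9.0 kb apart. Its H3K4me3 island of 1.80 kb (height 117) lay towards the end of the gene, 1.97 kb past the listed start at 99389364, and its H3K27me3 island of 3.20 kb (height 12) at the outermost annotated end, 8.09 kb before that start. Within 1 kb of the listed start of Krt10 there was neither. Krt2, of the upper epidermis, lay wholly under 11.8 kb of H3K27me3 (height 10), and Krt9, of palm and sole, had neither mark.

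None of the 4 keratins of internal stratified epithelia and cornea had H3K4me3 (interval 0 to 60.2%, which includes the 58.9% of all genes). H3K27me3 lay at 2 of them (6.76 to 93.2%, against 22.4% of all genes). Krt12, of corneal epithelium, lay to 98.0% under 8.80 kb of H3K27me3 (height 11), and Krt76, of the palate, had 2 islands with a height of 8 each. The oral and oesophageal pair Krt4 and Krt13 had neither mark, with H3K27me3 4.87 kb and 21.0 kb away. In the companion layer, wound and stress group, 2 of 5 genes carried H3K27me3 (5.27 to 85.3%) and 0 H3K4me3 (0 to 52.2%). Those with H3K27me3 were Krt75 (8.0 kb, height 8) and Krt6a (6.20 kb, height 9). Krt6b, Krt16 and Krt17, induced in injured epidermis, had neither mark, and at Krt16 the nearest H3K27me3 island was 95.9 kb away. By this rule the pair Krt6a and Krt16 was unlike, whereas Krt6b and Krt17 were alike. The Krt6a island covered only 2.40% of the gene and was not in the higher-summit set.

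Hair follicle keratins were examined by layer. Of 7 inner root sheath genes 5 carried H3K27me3 and 0 H3K4me3. The type II genes Krt71 (15 kb, height 15, over 100% of the gene), Krt72 and Krt73 (sharing an island of 16.4 kb, height 13) were all marked, and of the type I genes Krt27 and Krt28 (4.20 and 5.40 kb, heights 10 and 11) but not Krt25 and Krt26. Of 15 hair keratins, the sulfur-rich proteins of the hair shaft, 3 carried H3K27me3 (20%, near the 22.4% of all genes) and 0 H3K4me3. These were the type II genes Krt87, Krt86 and Krt82. Krt87 had the highest H3K27me3 summit of the family, 55 in an island of 11.2 kb, above 93.7% of islands, and covering 57.5% of the gene. The 9 type I hair keratins Krt31 to Krt36, Krt39 and Krt40 all had neither mark. The 56 Krtap genes, whose products embed these filaments in the hair shaft, had H3K4me3 at 0 and H3K27me3 at 3 (5.36%, 1.12 to 14.9%).

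Among the 9 genes without a role group, 6 had neither mark (66.7%, against 35.4% of all genes). Krt222, a keratin-like gene, had H3K4me3 only, in an island of 5.60 kb (height 152) that also reaches an end of Smarce1, a chromatin remodelling subunit gene, and covers 3.86% of Krt222. Krt90 shared an H3K27me3 island of 10.6 kb (height 11) with Krt82. Krt79 had an island of 1.40 kb (height 10) that began 269 bp from its lower-coordinate end. Krt78 had H3K4me3 (1.80 kb, height 10) only inside the gene, away from its ends. With such islands counted, 7 keratin genes had the mark, against 62.7% of all genes.

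The limit of 1 kb mattered at few genes. Of the 22 genes with H3K27me3, 21 had an island on an annotated end itself and Krt79 one at 269 bp. Just outside the limit were Krt80 at 1.44 kb and Krt88 at 1.93 kb. The next gene was Krt83 at 3.53 kb. The 31 keratin genes without H3K27me3 had a median of 14.5 kb to the nearest island (1.44 to 95.9 kb), against 90.2 kb for all genes without it. The 47 without H3K4me3 had a median of 90.6 kb to that mark (5.18 to 271 kb), against 65.9 kb for all genes without it.

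Sequence before the start was compared next, over the 36 keratin genes with a listed start. For Krt2, Krt10, Krt12, Krt14, Krt36 and Krt78 that start and the whole run before it lay inside the annotated gene. Their starts were 787, 8085, 334, 1480, 3861 and 42337 bp from the outermost annotated end. The start of Krt77 lay 1 bp inside. The median number of CG dinucleotides in the 250 bases was 3.5 (1 to 16), against 10 over 17268 protein-coding genes. At the 21 keratin starts with neither mark the median was 2, as for all genes in that state, and at the 12 with H3K27me3 only it was 4.5, against 6. The 2 starts with both marks, Krt8 and Krt18, had 3 and 12 against a median of 17, and Krt14, with H3K4me3 only, had 5 against 17. The 21 type I and 15 type II starts had medians of 4 and 3 CG dinucleotides and a median GC content of 44.8% and 51.2%. These are descriptions over genes that share clusters and ancestry.

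**Figure D4:**
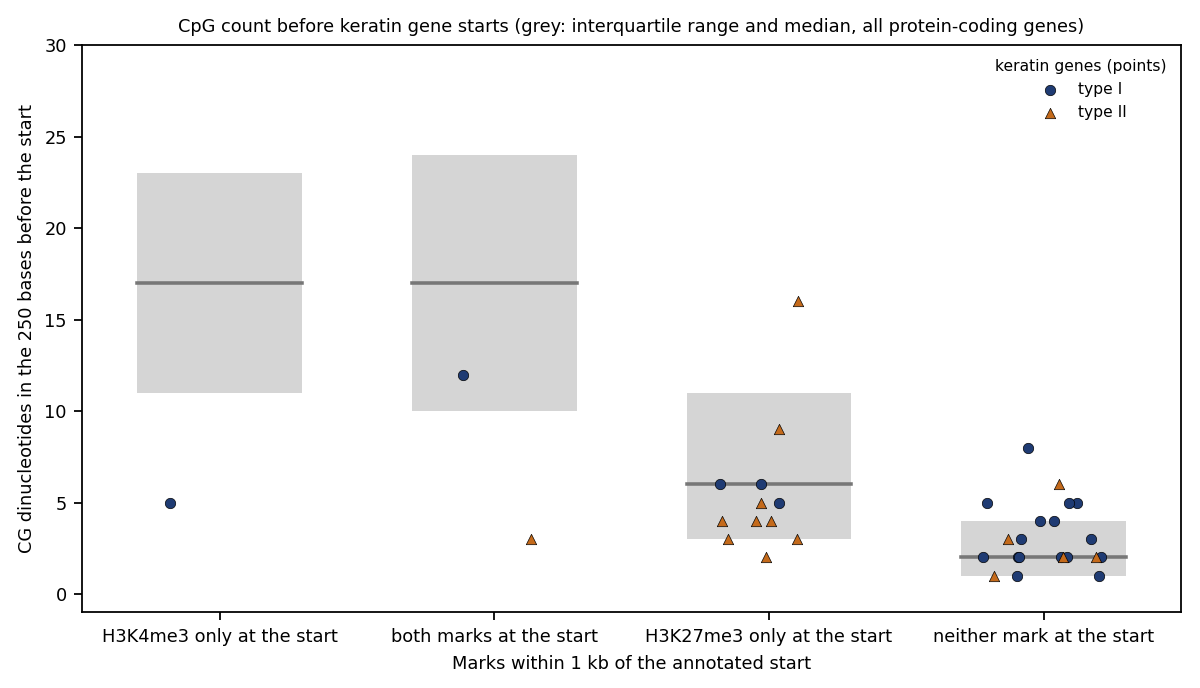
Number of CG dinucleotides in the 250 bases before the start of 36 keratin genes (points, type I circles and type II triangles) by the marks within 1 kb of the start, over the interquartile range (grey box) and median (line) of all protein-coding genes in that state. Krt7 stands highest at 16, and most keratin points lie at 6 or below.

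A TATA box was found before keratin starts at a larger share than before those of all genes. The letters TATAAA, searched on both strands, were found in 17 of 36 runs (47.2%), against 12.5% of all protein-coding genes and 23.2% of those with neither mark at the start. With the first letter 20 to 40 bases before the start and on the strand of the gene, it was found in 13 (36.1%) against 2.87% and 5.53%, in 10 of 21 type I and 3 of 15 type II runs. None of the 6 printed runs holds it. The GC box GGGCGG, on both strands, was in 2 runs (5.56%), those of Krt7 and Krt75, against 43.2%, and the AP-2 letters GCCNNNGGC, which read the same on both strands, in 5 (13.9%) against 16.1%. Matches of different motifs may overlap. At the 21 keratin starts with neither mark TATAAA was found in 10 (47.6%) and in that place in 8 (38.1%). Of the 13 starts with the placed TATAAA, 5 had H3K27me3 only and 8 neither mark.

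Other intermediate filament genes had larger shares of both marks than keratins, which was not tested. Of 15, H3K4me3 lay at 12 (80.0%, 51.9 to 95.7%) and H3K27me3 at 9 (60%, 32.3 to 83.7%), with both at 7. Vim, which encodes vimentin, had 6.0 kb of H3K4me3 (height 159), and the nuclear lamina gene Lmnb1 4.60 kb (height 252), both without H3K27me3. The neuronal filament genes Nefl, Nefm, Nefh, Ina and Prph had both marks, with H3K27me3 heights of 59 to 84, above the 55 of Krt87. Des, of muscle, and Gfap, of astrocytes, had H3K27me3 only.

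Markers of the cell types that the sort could hold were examined beside the keratins. Of 10 markers of pulp mesenchyme, among them Msx1, Twist1, Col1a1 and Pdgfra, 10 carried H3K4me3, with heights of 52 to 205, and 7, including Msx1, Twist1 and Pdgfra, carried H3K27me3 as well. Of 7 dental epithelium markers 4 had H3K4me3 (57.1%, near the 58.9% of all genes), with heights of 8 to 58. These were Krt14 (8), the enamel gene Ambn (15), Cdh1 (46) and Epcam (58), the last 2 with H3K27me3 too. Krt5, Amelx and Trp63 had neither mark at their ends. Of 4 markers each of blood, of endothelium and of nerve and glia, H3K4me3 lay at 1, 1 and 2 and H3K27me3 at 1, 1 and 3, against 58.9% and 22.4% of all genes. The part of other cell types in the keratin islands was not tested.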

How the data were processed

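The submitters' processing notes name BWA, a read aligner, SICER, an island caller, and the build mm10, without versions or settings. Per the file headers, the authors deposited a summit track and an island track for each mark, and each summit height is a whole-number score set by the authors, whose scaling was not given in the sources used here. Islands are built of 200 bp steps, and positions are 1-based on mm10. How reads that fit several keratin copies were placed was not given in the sources used here.

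Gene ends came from a RefSeq table of GRCm38.p6, and strand and starts from the RefSeq promoter table, for 36 of the 53 keratin genes. An overlap of 1 bp with the window of 1 kb counted. Types, role groups, markers and comparison lists were written from textbook knowledge, and any member could be named, with islands for every marked member and for 8 partner pairs. The members and lists were chosen with earlier results of these data known. Krt74, annotated as a pseudogene, and Krt85 and Krt3 are not analysed here, and 1 gene of the marker and regulator lists is not reported here. Overlap code was tested on simulated islands. Python 3.11.15, pandas 2.3.3 and scipy 1.17.1 were used. No test was run, since each group is 1 library, and depth is unknown. Alternatives varied the window, the covered share, the gene body, the summit height, the start and island merging.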

Additional observations from a re-analysis of the deposited data

How the results depend on the processing

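No paired analysis was possible because each mark has a single library. Of 42 alternative values 32 stayed within 1.5 times the count, or within the counting interval of the share or of the difference between shares. For differences this rule is loose. It passed changes of sign for H3K4me3 and the smaller H3K27me3 difference of the higher-summit set, both given below. Counts limited to genes in the clusters could not differ, since every keratin gene lies there. The total of 32 therefore does not measure how stable the results are. Of the counts of keratin genes, those in the higher-summit set fell to 2 for H3K4me3 and 11 for H3K27me3. At a listed start the counts were 3 and 14. These cover 36 genes instead of 53, so they cannot be set directly against the main counts. Coverage in the higher-summit set was 0.216% for H3K4me3 and 1.52% for H3K27me3 on chromosome 11, and 0% and 24.9% on chromosome 15. Without the Krtap stretch the chromosome 11 values were 1.08% and 11.1%. The excess of type II over type I in H3K27me3 share, 42.6 percentage points, ranged from 21.3 points in the higher-summit set to 50.6 with windows of 2.5 kb, and was 46.9 between the clusters. The H3K4me3 difference, -6.29 points, was 0.857 with 50% of a window covered and 0.427 between the clusters. Unknown depth and the lack of an input library limit every absent or low island.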

Other observations

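Islands away from keratin ends also lay in both clusters. On chromosome 15, 6 of the 23 H3K27me3 islands reached no keratin end, with widths of 5.80 to 16.4 kb and heights of 7 to 16, and 1 of them reached an end of the predicted gene Gm5414. On chromosome 11 this held for 5 of 12, with heights of 9 to 16, and 1 of them reached the end of Krtap17-1.

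Genes of other epithelial programmes were described by the same rule, where 16.8% of all genes had both marks and 35.4% neither, and no difference was tested. Of 15 listed genes of the epidermal differentiation complex, whose products cross-link around keratins in the cornified layer, 13 had neither mark (86.7%), also the most frequent state of keratins, while Lor (3.80 kb of H3K4me3, 12.2 kb of H3K27me3) and Tchh (4.60 and 21.8 kb) had both. Of 13 desmosome genes, whose plaques anchor keratin filaments, 9 had both marks (69.2%), among them Dsp (5.20 and 10.8 kb) and Pkp1 (1.40 and 18.4 kb), and Jup had H3K4me3 only. Of 14 epithelial regulators 12 had both marks (85.7%), such as Grhl2 with 3.20 kb of H3K4me3 and 14.0 kb of H3K27me3 at a height of 83, and Klf5 with heights of 156 and 27. Grhl3 had H3K27me3 only and Trp63 neither at its ends.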
